A study of Homo sapiens with 6 samples.

Results

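The genes described here build the cores of mucin-type O-glycans: the core 1 enzyme C1GALT1, its chaperone C1GALT1C1 (Cosmc), the core 2 enzymes GCNT1, GCNT3 and GCNT4, and the core 3 enzyme B3GNT6. They were chosen by name, and every probe set whose RefSeq accession maps to one of these 6 genes was taken. That gave 6 of the 1259 probe sets on the array and 5 of the 927 genes that could be named: C1GALT1, C1GALT1C1, GCNT1 and GCNT3 with 1 probe set each and B3GNT6 with 2. No probe set was named GCNT4 through the RefSeq table, so GCNT4 is not analysed here. The array may still measure GCNT4, because 26 probe sets had an accession outside that table.

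Mucin-type O-glycans start with a GalNAc on a serine or threonine, the Tn antigen. C1GALT1 adds galactose to it and makes core 1, the T antigen, but it folds only with the help of C1GALT1C1 in the endoplasmic reticulum; cells without the chaperone lose the enzyme's activity and display Tn. GCNT1 branches core 1 with GlcNAc to give core 2, and GCNT3, the mucin-type isoenzyme, makes core 2 and core 4. B3GNT6 competes with C1GALT1 for the same GalNAc and makes core 3, a structure of normal colon mucosa that is often reduced in colorectal cancer.

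RNA of HCT116, a human colon carcinoma line deficient in mismatch repair, was measured on 6 single-colour glycogene arrays. By their titles the cells carried wild-type ACVR2, an activin receptor that such tumours often lose, under doxycycline control. Cells given doxycycline and activin A gave 3 arrays, and cells given activin A without doxycycline gave 3. Activin A was thus shared by both groups, and the inducible construct too. Because another label names TGFBR2 and AIM2 beside ACVR2, the identity of the construct rests on the titles. The sources used here give neither doses nor hours of induction, nor whether a single clone was used. No array tested doxycycline on cells lacking the construct, so effects of the drug and of the receptor cannot be told apart. Nothing says that replicates were separate cultures, and p-values measure only the spread between these arrays, which may be technical.

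Values are log2 expression from RMA, with array medians of 7.61 to 7.65, and a difference is the mean with doxycycline minus the mean without. Replicate 3 without doxycycline stood apart: its correlations with the other arrays were 0.982 to 0.991, against 0.995 to 0.999 among the other 5. The difference of each core gene is therefore also given without that array. ACVR2A, the receptor gene named in the titles, read 8.08 ± 0.07 with doxycycline and 8.34 ± 0.32 without (SD, n = 3 each), and induction was not seen on this probe set. Whether its probes lie in the introduced sequence is not known. Of 18 colon epithelial markers, 4 were measured (MUC1, MUC2, MUC13 and LGALS4), at means of 6.85 to 8.74 over the 6 arrays. Of 15 markers of endothelium, leukocytes, fibroblasts and neurons, 9 were measured, at 6.004 to 7.55. The mean of these 9 per array was 6.67 to 6.68 with doxycycline and 6.69 to 6.71 without. That of the 4 colon markers was 7.48 to 7.54 with doxycycline and 7.54 to 7.61 without. MUC2, MUC13 and LGALS4 lay within the range of the 9 markers of other cells.

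The start regions of the core 1 pair and of GCNT3 are shown because the receptor named in the titles is known to signal to promoters through SMAD proteins. Each runs from 250 bases before to 50 after the gene start, from RefSeq on GRCh38.p14, 5′ to 3′ on the gene's strand. Capitals mark the GC box GGGCGG, a site of SP-family factors, and CAGAC, a sequence that SMAD proteins can bind, each on either strand.
C1GALT1, chr7:7182294-7182593, plus strand: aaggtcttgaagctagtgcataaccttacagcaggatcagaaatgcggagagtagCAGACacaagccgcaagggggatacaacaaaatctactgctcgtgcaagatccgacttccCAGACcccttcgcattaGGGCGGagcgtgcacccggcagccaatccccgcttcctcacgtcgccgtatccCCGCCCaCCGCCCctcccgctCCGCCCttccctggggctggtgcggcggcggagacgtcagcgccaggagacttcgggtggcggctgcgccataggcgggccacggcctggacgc
C1GALT1C1, chrX:120630005-120630304, minus strand: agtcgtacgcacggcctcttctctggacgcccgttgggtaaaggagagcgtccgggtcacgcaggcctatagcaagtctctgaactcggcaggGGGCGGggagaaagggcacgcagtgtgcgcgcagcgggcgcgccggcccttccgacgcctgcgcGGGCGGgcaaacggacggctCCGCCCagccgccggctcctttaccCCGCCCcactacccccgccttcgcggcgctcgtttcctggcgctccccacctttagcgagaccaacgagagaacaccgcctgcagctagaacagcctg
GCNT3, chr15:59611533-59611832, plus strand: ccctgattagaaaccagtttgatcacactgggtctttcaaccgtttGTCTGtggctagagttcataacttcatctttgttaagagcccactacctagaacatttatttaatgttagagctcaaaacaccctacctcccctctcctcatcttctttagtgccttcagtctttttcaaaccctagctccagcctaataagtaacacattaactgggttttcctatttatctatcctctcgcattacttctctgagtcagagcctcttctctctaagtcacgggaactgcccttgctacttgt

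The enzyme and its chaperone each held 4 GC boxes, and GCNT3 held 0. In C1GALT1 the GC boxes began 118, 65, 58 and 44 bases before the start, and in C1GALT1C1 157, 93, 73 and 48 bases before it. A GC box was present in 45.0% of 35116 RefSeq promoters of this length, and 2 or more in 26.7%. CAGAC stood in C1GALT1 195 and 135 bases before the start and in GCNT3, on the opposite strand, 204 bases before it. C1GALT1C1 held 0 matches, and 45.3% of all promoters held at least 1 and 13.1% held 2 or more. No motif overlapped another. The G and C share was 64.3% in C1GALT1, 69.0% in C1GALT1C1 and 42.3% in GCNT3, beside a median of 58.7% over all promoters. GCNT1 has 4 start regions in the table, with 0, 1, 3 and 0 GC boxes and 1, 1, 1 and 0 CAGAC matches in order along the chromosome. These matches describe letters in a window and say nothing of binding.

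All of the core genes gave mid-range signals on these arrays. The means of their probe sets over the 6 arrays ran from 7.28 for GCNT3 to 7.75 for 1 B3GNT6 probe set, which placed them between percentiles 39.2 and 52.3 of all 1259 probe sets. The core 1 enzyme stood at percentile 40.5 and its chaperone at 50.7. Core 2 enzymes GCNT1 and GCNT3 stood at percentiles 48.5 and 39.2, and the probe sets of the core 3 enzyme B3GNT6 at 52.3 and 52.2. Probe sets differ in how strongly their probes bind, so no order of transcript abundance among the cores follows from these positions. The table holds no detection calls. The means of GCNT3 and C1GALT1 (7.28 and 7.32) lay within the range of the markers of other cells given above. GCNT1 (7.57) lay just above that range, and C1GALT1C1 and B3GNT6 lay above it too. How much of each signal is background was not tested.

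The chaperone C1GALT1C1 showed the clearest separation of the core genes. Its level was 7.80, 7.79 and 7.80 in replicates 1, 2 and 3 with doxycycline, against 7.59, 7.65 and 7.39 in those without. All 3 arrays with doxycycline lay above all 3 without, with a gap of 0.14 log2 units between the groups. The means were 7.79 ± 0.0051 with doxycycline and 7.54 ± 0.14 without (SD, n = 3 each). The difference was 0.25 log2 units (SE 0.07, 95% interval 0.07 to 0.43), a 1.19-fold higher level (interval 1.05 to 1.35). It did not pass the threshold of 0.05 after adjustment over all probe sets (limma, adjusted p = 0.477). The raw p was 0.0148 in limma's moderated test across all probe sets. The exact two-sided permutation test gave p = 0.1, the smallest that 3 arrays against 3 allow. Replicate 3 without doxycycline, the array that stood apart, held the lowest value. Without it the difference was 0.17. The lack of overlap there was fixed in advance, because leaving out an array cannot make separated groups overlap. In RNA of whole cultures, fewer expressing cells and less RNA per cell cannot be told apart.

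The core 1 enzyme C1GALT1 differed by 0.18 log2 units in the same direction, with overlapping groups. It read 7.36, 7.44 and 7.43 in replicates 1, 2 and 3 with doxycycline, against 7.39, 7.06 and 7.25 in those without. Replicate 1 without doxycycline lay within the range of the arrays with it, while replicates 2 and 3 lay below. The means were 7.41 ± 0.04 with doxycycline and 7.23 ± 0.16 without (SD, n = 3 each). The difference had an SE of 0.09 and a 95% interval of -0.04 to 0.39, or 1.13-fold with an interval of 0.97 to 1.31 (limma, adjusted p = 0.682; exact permutation p = 0.2). The array that stood apart had little part in this value, which was 0.18 without it as well. Replicate 2 without doxycycline held the lowest value, and the difference was 0.09 without that array. With each array centred on its median, or quantile normalized again, the groups no longer overlapped for C1GALT1.

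**Figure D1:**
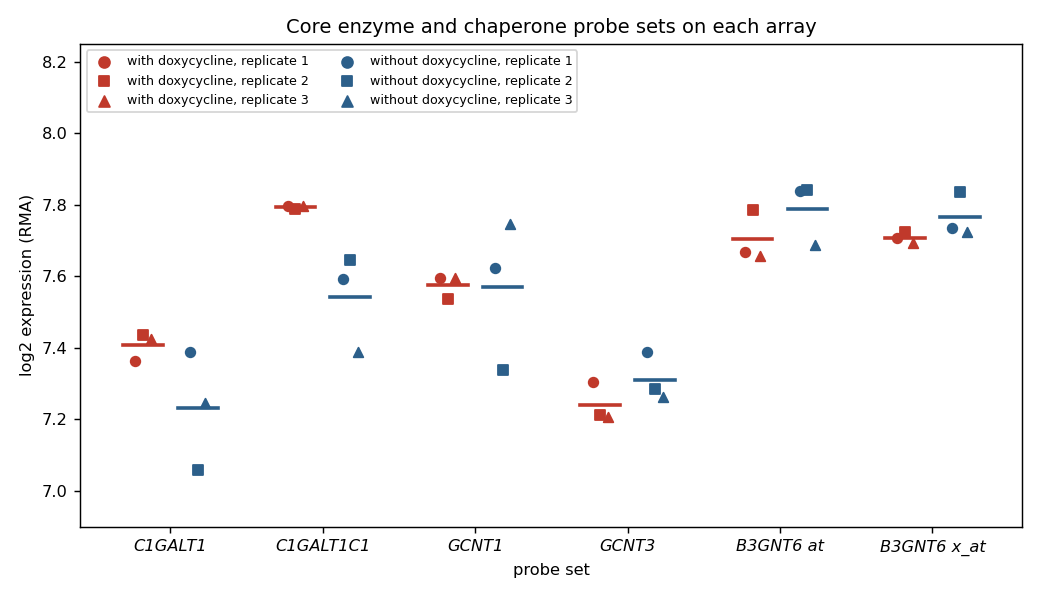
Log2 expression (vertical axis) of the 6 core enzyme and chaperone probe sets (horizontal axis) on each array, with doxycycline in red left of without in blue. Marker shapes give the replicate and bars the group mean. For C1GALT1C1 the 3 red points lie together at 7.79 to 7.80, above all 3 blue points; the groups of the other probe sets overlap.

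GCNT1, the leukocyte-type core 2 branching enzyme, had nearly equal means in both groups. Its level was 7.59, 7.54 and 7.59 in replicates 1, 2 and 3 with doxycycline, against 7.62, 7.34 and 7.75 in those without. The arrays without doxycycline lay on both sides of those with it. The difference was 0.0057 log2 units (SE 0.11), with a 95% interval of -0.26 to 0.27 that leaves room for 0.83-fold to 1.21-fold (limma, adjusted p = 0.992; exact permutation p = 1). Its sign depended on single arrays: the difference was 0.09 without replicate 3 lacking doxycycline and -0.11 without replicate 2 lacking it. This probe set has the suffix s_at, which by Affymetrix's usual naming marks probes shared with other transcripts.

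GCNT3, the isoenzyme that makes core 2 and core 4 in mucin-secreting epithelia, had slightly lower values with doxycycline. It read 7.30, 7.21 and 7.21 in replicates 1, 2 and 3 with doxycycline, against 7.39, 7.28 and 7.26 in those without. Replicate 1 with doxycycline lay above 2 of the 3 arrays without it, so the groups overlapped. The difference was -0.07 log2 units (SE 0.05, 95% interval -0.20 to 0.06; limma, adjusted p = 0.721; exact permutation p = 0.3). The interval runs from 0.87-fold to 1.04-fold. Without the array that stood apart the difference was -0.09, and without replicate 1 lacking doxycycline it was -0.03.

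B3GNT6, the core 3 enzyme, likewise had slightly lower means with doxycycline on both of its probe sets. On the probe set with the suffix at, it read 7.67, 7.79 and 7.66 in replicates 1, 2 and 3 with doxycycline, against 7.84, 7.84 and 7.69 in those without. On the probe set with the suffix x_at, which by Affymetrix's usual naming can bind other sequences too, it read 7.71, 7.72 and 7.69 with doxycycline, against 7.74, 7.84 and 7.72 in those without. On the at probe set, replicate 2 with doxycycline lay above replicate 3 without it. The x_at groups barely overlapped, replicate 2 with doxycycline lying 0.00021 above replicate 3 without. The differences were -0.08 (SE 0.06, 95% interval -0.24 to 0.07) and -0.06 (SE 0.04, 95% interval -0.16 to 0.05). Neither passed (limma, adjusted p = 0.721 and 0.723; exact permutation p = 0.2 for both). Without the array that stood apart the differences were -0.14 and -0.08, and the groups no longer overlapped on either probe set. Without replicate 2 lacking doxycycline the x_at difference was -0.02. Both probe sets report the same gene, within 0.0047 to 0.10 log2 units of each other on every array, and do not count as 2 observations.

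**Figure D2:**
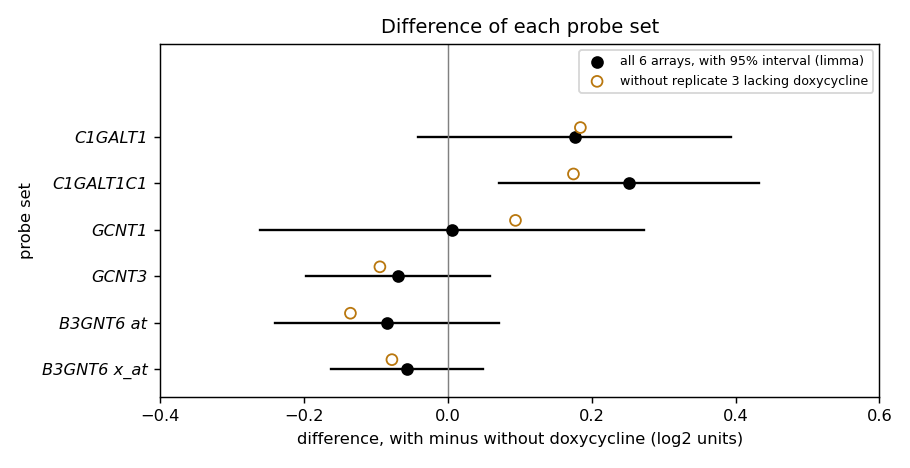
Difference in log2 expression, with minus without doxycycline (horizontal axis), of each probe set (vertical axis). Black points and lines give all 6 arrays with limma's 95% interval, and open circles the difference without replicate 3 lacking doxycycline. The interval of C1GALT1C1 (0.07 to 0.43) lies above 0 before adjustment; the other 5 span 0.

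Of the 6 probe sets, 0 passed an adjusted p of 0.05, as did 0% of the 1259 (limma; 98 of these had a raw p under 0.05, or 7.78%, and the smallest adjusted p was 0.158). With array weights 1 probe set of the table passed, outside the core genes. A raw p under 0.05 was reached by 1 of the 6, C1GALT1C1. The groups did not overlap for 1 of the 6, again C1GALT1C1, against 15.8% of all probe sets in either direction, 7.55% higher and 8.26% lower with doxycycline. Without the array that stood apart it was 3 of the 6, against 25% of all probe sets. These were C1GALT1C1, whose groups were already apart with that array included, and the 2 probe sets of B3GNT6, which report 1 gene. Differences were positive for 3 of the 6 and negative for 3, with a median of -0.03 beside -0.0081 over all probe sets. The negative ones were GCNT3 and the 2 probe sets of B3GNT6, so B3GNT6 enters this count and median with both probe sets. The difference of C1GALT1C1 was exceeded in size by 14.5% of all probe sets and that of C1GALT1 by 22.0%. For GCNT3, the 2 probe sets of B3GNT6 and GCNT1 these shares were 45.0%, 39.5%, 50.5% and 93.1%.

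The arrays without doxycycline spread more widely for all 6 probe sets, as for 77% of the whole table. The range over the 3 arrays of C1GALT1C1 was 0.0089 with doxycycline and 0.26 without. For C1GALT1 it was 0.07 and 0.33, and for GCNT1 0.06 and 0.41. GCNT3 and B3GNT6 varied little in either group, with ranges of 0.03 to 0.13 with doxycycline and 0.11 to 0.15 without. The median SD of a probe set over the whole table was 0.0457 with doxycycline and 0.0902 without.

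The balance between the cores was read within each array, as the log2 value of a gene minus that of C1GALT1. This comparison was chosen after values had been seen and carries no test; its size has meaning between groups but not between genes. GCNT1 minus C1GALT1 was 0.23, 0.10 and 0.17 in replicates 1, 2 and 3 with doxycycline, against 0.24, 0.28 and 0.50 in those without. GCNT3 minus C1GALT1 was -0.06, -0.22 and -0.22 with doxycycline, against -0.00044, 0.22 and 0.01 in those without. Both core 2 balances were lower on each array with doxycycline than on any array without, for GCNT1 by a margin of 0.0043. B3GNT6 minus C1GALT1 was 0.31, 0.35 and 0.23 with doxycycline on the at probe set, against 0.45, 0.78 and 0.44 in those without. On the x_at probe set it was 0.34, 0.29 and 0.27 with doxycycline, against 0.35, 0.78 and 0.48 in those without, separated by a margin of 0.0057. The mean balances differed by -0.17 for GCNT1, -0.25 for GCNT3, and -0.26 and -0.23 for the B3GNT6 probe sets. Without the array that stood apart they were -0.09, -0.28, -0.32 and -0.26. Leaving out an array cannot make separated groups overlap, so the lack of overlap there was fixed in advance. With that array left out, 41.7% of all other probe sets were likewise lower without overlap. Without replicate 2 lacking doxycycline the B3GNT6 balances were -0.15 and -0.11, the smallest of the left-out arrays.

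These 4 balances share C1GALT1 and are not independent. C1GALT1's own difference of 0.18 enters each of them with its sign turned, while GCNT1's own difference was 0.0057. Of all 1258 other probe sets, 37.6% were likewise lower relative to C1GALT1 without overlap, so the pattern is common on these arrays. The chaperone was the exception among the core genes. C1GALT1C1 minus C1GALT1 was 0.43, 0.35 and 0.37 with doxycycline, against 0.21, 0.59 and 0.14 in those without, and the groups overlapped. Its mean balance differed by 0.08, by -0.0096 without the array that stood apart and by 0.21 without replicate 2 lacking doxycycline. The 2 core 2 enzymes against each other, GCNT1 minus GCNT3, gave 0.29, 0.32 and 0.39 with doxycycline and 0.24, 0.05 and 0.48 without. That difference of 0.08 came with overlapping groups. Without the array that stood apart it was 0.19, and the groups no longer overlapped. With that array left out, 25% of single probe sets did not overlap either. The share for differences between other pairs of genes was not computed.

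**Figure D3:**
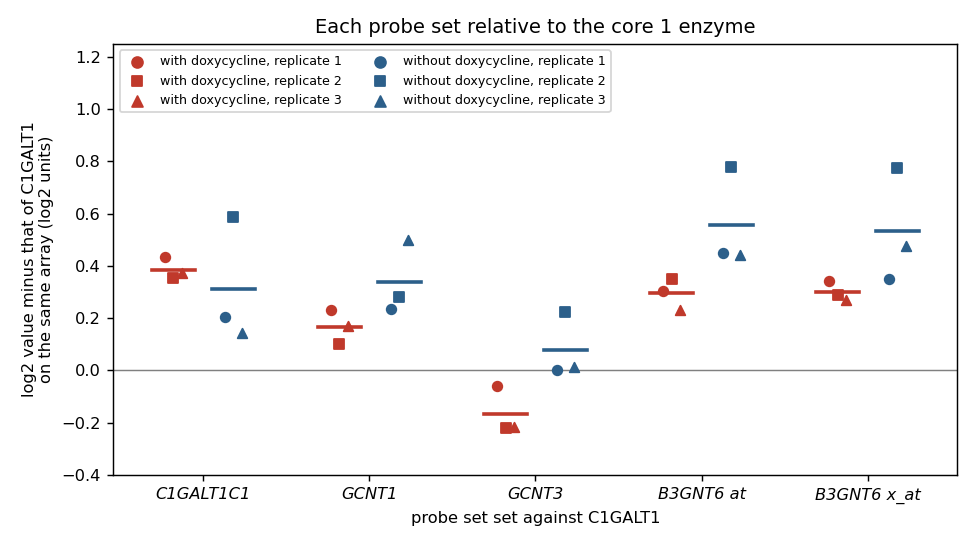
Log2 value of each probe set minus that of C1GALT1 on the same array (vertical axis), with doxycycline in red left of without in blue; markers are arrays and bars group means. GCNT1, GCNT3 and both B3GNT6 probe sets lie lower in red without overlap, whereas C1GALT1C1 overlaps; 37.6% of all other probe sets lie lower in the same way.

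Profiles most like those of the core genes were sought by the root mean square difference between mean-centred log2 values over the 6 arrays. The search covered the 4 probe sets whose SD over all arrays was above the median of 0.08. Nearest to C1GALT1C1 were ALG13, part of the enzyme that adds GlcNAc to the N-glycan precursor, at 0.03, the lysosomal sialidase gene NEU1 at 0.04, and BPHL, a serine hydrolase gene, at 0.04. All 3 were higher with doxycycline without overlap, by 0.24, 0.31 and 0.31, as were 7.55% of all probe sets. Their direction and separation follow from choosing them by likeness to C1GALT1C1 and are no further evidence. Near to C1GALT1 were the tyrosine sulphotransferase gene TPST1 at 0.04 and SLC35F3, a transporter-family gene, at 0.06. Nearest to GCNT1 were the galactosyltransferase gene B4GALT4 at 0.03, the arylsulphatase gene ARSB at 0.04 and CHSY3, a chondroitin synthase gene, at 0.04. Nearest to the at probe set of B3GNT6 were the fringe gene MFNG, the growth factor gene HGF and the morphogen gene SHH, each at 0.03. All of these profiles share the same 6 arrays, including the one that stood apart.

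The steps around the cores were read from lists of pathway genes, with 1 probe set per gene, and 0 members of any list passed over all probe sets (limma). Of the GalNAc-transferases, which attach the first sugar and so make the substrate of C1GALT1 and B3GNT6, 18 of 20 were measured; 5 had higher and 13 lower means with doxycycline, with a median difference of -0.04 that was -0.02 without the array that stood apart. Those with the smallest raw p were GALNT13 (-0.14), GALNT18 (-0.28), GALNT6 (0.17) and GALNT12 (-0.34). Of the 8 sialyltransferases that cap cores, all measured, 5 had higher and 3 lower means, and the median was 0.02. ST6GALNAC2 and ST6GALNAC4, which sialylate the GalNAc, differed by 0.28 and 0.26. ST3GAL1, which caps core 1 and so removes it from GCNT1's reach, and ST3GAL2 differed by -0.19 and 0.13.

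Genes that extend or sulphate core branches were evenly divided, with higher means for 10 of 20 measured, lower means for 10 and a median difference of -0.0068, or -0.0037 without the array that stood apart. GAL3ST4, a sulphotransferase that acts on core 1 and core 2, read 7.98 ± 0.05 with doxycycline and 8.41 ± 0.07 without (SD, n = 3 each), a difference of -0.42 (limma, adjusted p = 0.158). Its adjusted p was tied for the smallest of the table, and its raw p ranked 2 of 1259. GCNT2, the I-branching relative of GCNT1, differed by -0.14, the galactosyltransferase gene B4GALT3 by 0.11 and the sulphotransferase gene GAL3ST2 by 0.07. Of 11 genes of sugar nucleotide supply, 10 had higher and 1 lower means; the median was 0.10, which was 0.08 without the array that stood apart. NANS, a sialic acid synthase gene, differed by 0.45. The transporter gene SLC35D1 differed by 0.10 and CMAS, which activates sialic acid, by 0.08.

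Of 21 names of proteins that carry mucin-type O-glycans, 16 were measured. Means were higher for 5 and lower for 11, and the median difference was -0.03. OVGP1 (-0.32), EMCN (0.28), PODXL (-0.43) and MUC1 (-0.13) had the smallest raw p. Of 5 activin and TGF-beta receptors, 1 was higher and 4 lower, with ACVR2B at -0.52, TGFBR2 at -0.35, ACVR2A at -0.26 and ACVR1B at 0.07. The median of these receptors was -0.26, and -0.08 without the array that stood apart. Without that array ACVR2B was at -0.31, TGFBR2 at -0.16, ACVR2A at -0.08 and ACVR1B, its sign turned, at -0.010. Among the other pathway genes named above, some differences also shrank by over 1.5 times without that array. These were NANS (then 0.25), SLC35D1 (0.05), ST6GALNAC4 (0.07), ST3GAL2 (0.04), GALNT6 (0.09), GALNT12 (-0.13), B4GALT3 (0.02), GAL3ST2 (0.03), EMCN (0.18) and PODXL (-0.26). Genes of the lists that are not named above shrank as well and are not given. Over all 1259 probe sets 571 differences were positive and 688 negative.

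**Figure D4:**
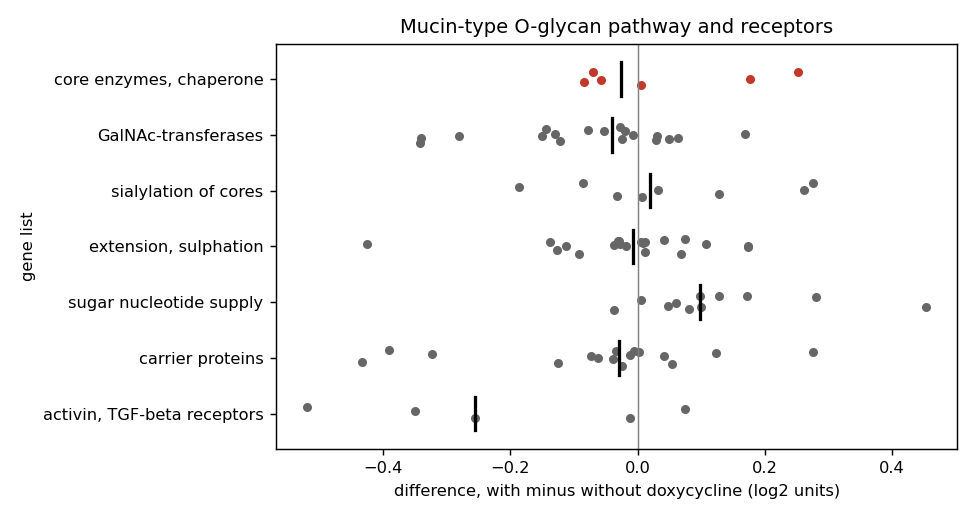
Difference in log2 expression, with minus without doxycycline (horizontal axis), for the core enzyme and chaperone probe sets in red and the genes of each pathway list in grey, with the median of each as a black bar. The core genes run from -0.08 to 0.25, within the spread of the other steps, and the sugar nucleotide supply list lies mostly above 0.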

How the data were processed

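The deposited values are log2 expression, 1 per probe set (1259) and array (6). The authors obtained them with RMA (background correction, quantile normalization and probe set summary), according to the submitters' processing notes; its version and further steps are not given in the sources used here. Total RNA was extracted with Trizol and labelled with biotin, per the labels' protocols. Symbols came from the RefSeq accession within each probe set identifier, version dropped, and a RefSeq gene table for GRCh38.p14: 1043 had 1 symbol, 190 no RefSeq accession, and 26 an accession outside the table.

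Groups were taken from the sample titles and tested with limma 3.58.1 under R 4.3.3 (functions lmFit and eBayes, two-sided, no block, no filter, Benjamini-Hochberg over 1259 probe sets). Exact permutation tests used scipy 1.17.1. The fit was tested on simulated data. With so few arrays precision is limited, and a difference's 95% interval had a median half-width of 0.152 log2 units. No pair of arrays held identical values.

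The members and lists were chosen with earlier results of these data known. The genes named were all member probe sets, the 4 of each list with the smallest raw p (each gene by its brightest probe set), and the 3 genes nearest in profile to each member with an SD above the median. Some genes that this rule takes are not reported here. For the receptors it takes ACVR2B, TGFBR2, ACVR2A and ACVR1B. Marker genes and the balances between core genes were added as stated. Promoter sequences came from RefSeq (GRCh38.p14) for C1GALT1, C1GALT1C1, GCNT1 and GCNT3.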

Additional observations from a re-analysis of the deposited data

How the results depend on the processing

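The differences of C1GALT1, C1GALT1C1, GCNT3 and both B3GNT6 probe sets kept their sign, and 0 of the 6 probe sets passed, under median centring, repeated quantile normalization, a filter on dim probe sets, array weights, an intensity trend, the replicate block, gene means and leaving out each array in turn. C1GALT1C1 ranged from 0.17 to 0.30 and its adjusted p from 0.0699, with array weights, to 0.903 (limma). C1GALT1 ranged from 0.06, with array weights, to 0.25. GCNT3 ranged from -0.10 to -0.03, and the B3GNT6 probe sets from -0.14 to -0.06 and from -0.08 to -0.02. GCNT1 turned to -0.010 with array weights, and ranged from -0.109 to 0.094 when single arrays were left out. The number of member probe sets whose groups did not overlap was 2 with median centring or repeated quantile normalization (C1GALT1C1 and C1GALT1). The shares of all probe sets there were 16.8% and 16%. The number was 1 to 3 when single arrays were left out, against 21.4% to 41.4% of all probe sets. C1GALT1C1 was among them each time and could not change sign, both fixed in advance because its groups were already apart on all 6 arrays. Settings that alter only weights or the test cannot change the number, and it was not run on gene means. With array weights, whose estimation stopped before it converged, 1 of all probe sets passed. No pairing of arrays by replicate number was seen. Deviations of same-numbered arrays correlated at -0.15, -0.04 and -0.16, and 0 of 3 arrays with doxycycline correlated best with their own number. Each deviation is taken from a mean of only 3 arrays, so these values cannot show whether same-numbered arrays were handled together. With the replicate block C1GALT1C1 was at 0.25 (SE 0.07; limma, adjusted p = 0.715), and 0 probe sets passed. Relative to C1GALT1, no balance of GCNT1, GCNT3 or B3GNT6 changed sign in the alternatives added after seeing the data. Leaving out an array could not change it, because the groups of these balances did not overlap. Only the repeated quantile normalization could have changed the sign. Without detection calls, how far dim signals compress these differences is unknown.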
